A study of Mus musculus with 8 samples.

Results

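The HtrA serine proteases and the core of the plasminogen activation system were examined as 8 genes of the 50462 gene identifiers in a count table from mouse knee cartilage. They were taken by symbol: the proteases Htra1, Htra2, Htra3 and Htra4, the plasminogen activators Plau and Plat, the receptor Plaur and the inhibitor Serpine2. Each symbol matched 1 identifier, and all 8 genes were among the 17760 genes that received an adjusted P value. RNA-seq libraries were made from cartilage of the medial knee of male wild-type C57BL/6J mice, with 1 mouse per library and 4 libraries per group. Naïve mice had no operation and gave their cartilage on day 0, at the age of 11 weeks. DMM mice were operated on at the age of 11 weeks, when the ligament holding the medial meniscus of the left knee to the tibia was cut to produce post-traumatic osteoarthritis, and gave theirs on day 42, at the age of 17 weeks. The DMM mice, but not the naïve mice, also received buprenorphine and isoflurane. Sham-operated mice were not analysed here, and the injury, the procedure with its drugs, and ageing cannot be told apart.

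HtrA proteins are trypsin-like serine proteases with a PDZ domain. HtrA1, HtrA3 and HtrA4 carry a signal peptide and are secreted, and HtrA1 cleaves cartilage matrix proteins such as fibronectin, aggrecan and small leucine-rich proteoglycans, whereas HtrA2 resides between the mitochondrial membranes. In the plasminogen system, urokinase (Plau) and tissue-type activator (Plat) convert plasminogen to plasmin, the receptor Plaur holds urokinase at the cell surface, and inhibitors of the serpin family, among them protease nexin-1 (Serpine2), block the activators. Plasmin degrades fibrin and several matrix proteins and can activate procollagenases, and HTRA1 is known to be raised in osteoarthritic human cartilage.

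The libraries held 12479443 to 16548002 estimated counts, and the group totals did not differ detectably (13748658 ± 1693850 in naïve and 14941520 ± 1864000 in DMM, SD, n = 4 each, two-sided exact permutation test, P = 0.4). All 9 chondrocyte markers were detected, as were markers of other cell types. Summed normalised counts of 8 neutrophil-lineage markers ranged from 125210 to 187813 in naïve and from 54963 to 112806 in DMM libraries, with all 8 called lower, and those of 7 osteoblast and osteocyte markers from 19112 to 24873 and from 38021 to 69791, with all 7 called higher. Of the chondrocyte markers 5 of 9 were called higher (74869 to 139834 in naïve, 124194 to 182332 in DMM), as were 3 of 6 synovial fibroblast markers (2250 to 3171 and 3006 to 4398), and 5 of 6 erythroid markers were called lower (141941 to 281245 and 72969 to 158366). The sum of 5 endothelial markers was separate between the groups (3247 to 3780 and 4091 to 4673), with 2 called higher, and 1 of 5 osteoclast markers was called higher (10252 to 15915 and 11926 to 20360.2). No macrophage marker was called among 6 tested (5974 to 7157 and 5532 to 6844). Of 5 skeletal muscle markers only 2 were tested, and none was called (63.9 to 389.6 and 46.9 to 866). The muscle sum was 866 in DMM library 1 against 46.9 to 105 in the other DMM libraries. In naïve library 3 it was 389.6 against 63.9 to 108 in the other naïve libraries. No marker on these lists was at 0 in all libraries. In bulk tissue, fewer cells of a type and less RNA per cell cannot be told apart.

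Here a gene was called when its DESeq2 Wald test gave an adjusted P (Benjamini-Hochberg, over all tested genes) of at most 0.05 together with a change of at least 1.5-fold, and values are normalised counts unless a scale is named. By this rule 3 of the 8 genes were called. Htra1 and Htra3 were higher and Htra2 was lower in DMM, beside 7.75% of all tested genes called higher and 5.92% called lower. None of the plasminogen activators, Plaur or Serpine2 was called. The values of the groups did not overlap for the same 3 Htra genes, against 22.2% of all tested genes. Against a null change of 1.5-fold, Htra1 passed (DESeq2 adjusted P = 0.0485) and Htra3 did not (DESeq2 adjusted P = 0.229), nor did Htra2 (DESeq2 adjusted P = 1). Over all genes, 94 were called against this null, in place of 2429.

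**Figure D1:**
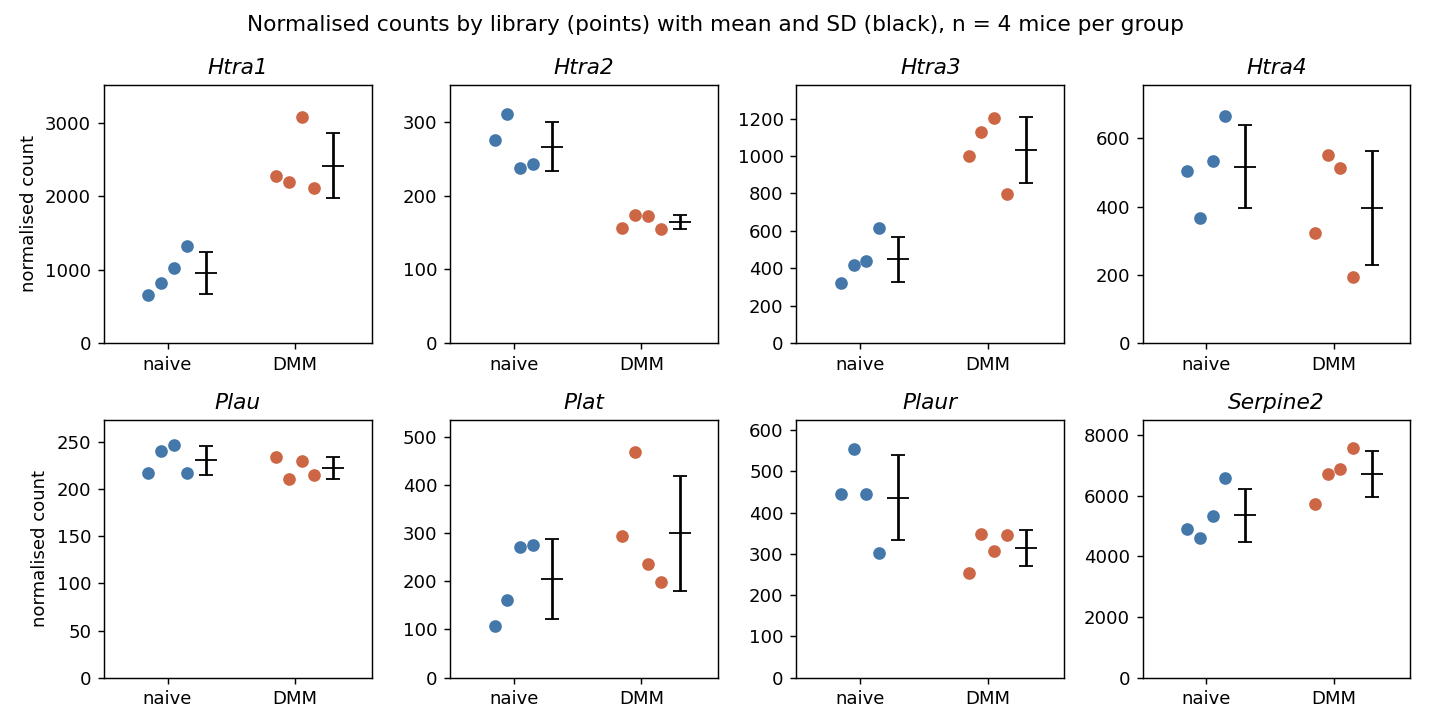
Normalised counts of the 8 genes in each library, naïve in blue and DMM in orange, with the group mean and SD in black (n = 4 mice per group, each panel with its own axis from 0). The groups are separate for Htra1, Htra2 and Htra3 and overlap for the other 5 genes.

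Htra1 (ENSMUSG00000006205), the secreted protease best known from joint tissue, lies on the plus strand at chr7:130936111-130985660 of GRCm38. It overlaps Fgfr2 on the opposite strand, but shares none of its 31-base words with other genes. Its normalised counts were 658, 823, 1015 and 1318 in naïve libraries 1 to 4 and 2278, 2194, 3076 and 2113 in DMM libraries 1 to 4. Every DMM library lay above every naïve library, and the naïve values themselves spanned a wide range. The means were 953 ± 283 and 2415 ± 446 (SD, n = 4), a 2.53-fold increase with a 95% interval of 1.92 to 3.35 (log2 fold change 1.34, SE 0.21, DESeq2 adjusted P = 1.03e-08).

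Htra3 (ENSMUSG00000029096), a second secreted protease with the same domain plan as HtrA1, lies on the minus strand at chr5:35652023-35679782. Its counts were 319, 416, 438 and 612 in naïve libraries and 999, 1128, 1204 and 797 in DMM libraries. The groups were again separate, and naïve library 1 was the lowest and naïve library 4 the highest for both Htra1 and Htra3. The means were 446 ± 122 and 1032 ± 178 (SD, n = 4), a 2.31-fold increase with a 95% interval of 1.76 to 3.03 (log2 fold change 1.21, SE 0.20, DESeq2 adjusted P = 1.40e-07). The osteoblast and osteocyte markers given above were higher in DMM as a whole, the chondrocyte and synovial fibroblast markers in part and with overlapping sums. In library order, osteoblast and osteocyte sums were 19112, 20285, 24873 and 24016 in naïve and 39395, 38021, 53621 and 69791 in DMM. Chondrocyte sums were 74869, 96096, 106270 and 139834, and 124194, 135345, 177541 and 182332. Synovial fibroblast sums were 2250, 2502, 2678 and 3171, and 4198, 3297, 4398 and 3006. The part of these markers in the increase of Htra1 and Htra3 was not tested.

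The sequences just upstream of the annotated starts of these genes are shown because they are the only called members for which a promoter window was at hand. They come from RefSeq GRCm38.p6 and are cut to end before both the RefSeq and the GENCODE start. Capitals mark a GC box in Htra1 (GGGCGG, found on the reverse strand) at chr7:130935953-130936110 on the plus strand, and the letters CCAAT in Htra3 at chr5:35679783-35680030 on the minus strand.
Htra1: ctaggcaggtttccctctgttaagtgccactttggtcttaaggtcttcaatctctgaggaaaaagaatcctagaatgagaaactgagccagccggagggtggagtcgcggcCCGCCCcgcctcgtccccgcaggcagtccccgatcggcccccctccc
Htra3: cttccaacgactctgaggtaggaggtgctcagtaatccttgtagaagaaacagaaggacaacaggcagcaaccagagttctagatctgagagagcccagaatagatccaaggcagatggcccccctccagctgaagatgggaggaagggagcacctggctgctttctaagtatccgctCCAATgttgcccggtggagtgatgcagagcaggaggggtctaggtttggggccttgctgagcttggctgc
Windows of the 250 bases before the RefSeq start were found for 4 of the 8 genes (Htra1, Htra3, Plaur and Serpine2) and searched on both strands for a CCAAT box (CCAAT), a GC box (GGGCGG), an AP-1 motif (TGACTCA) and a TATA box (TATAAA). The letters CCAAT were present in the Htra1 and Htra3 windows, 48 and 72 bases before the start, and in 33.8% of all 32851 mouse windows. In Htra1 it fell within the GENCODE transcript and so outside the stretch printed here. The AP-1 letters TGACTCA were found in the Plaur window, 69 bases before the start, and in 4.46% of all windows. GGGCGG occurred in the windows of Htra1, Plaur and Serpine2, the last of which lies 2515 bases from the GENCODE start, and in 32.7% of all windows, and TATAAA occurred in 12.4% of all windows and in that of neither Htra1 nor Htra3. A match of letters is a description and not a measured binding site.

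Htra2 (ENSMUSG00000068329), the mitochondrial member, lies on the minus strand at chr6:83051266-83055273. Its counts were 276, 311, 238 and 244 in naïve libraries and 157, 174, 172 and 155 in DMM libraries. All DMM values lay below all naïve values and within a narrow band. The means were 267 ± 33.9 and 165 ± 9.94 (SD, n = 4), or 0.616 of the naïve level (95% interval 0.506 to 0.751, log2 fold change -0.70, SE 0.15, DESeq2 adjusted P = 4.71e-05). With scaling to total counts the log2 fold change was -0.54, short of 1.5-fold (DESeq2 adjusted P = 0.000771). Htra2 overlaps its neighbours on the opposite strand, 37.6% of its 31-base words also occur in transcripts of other genes, chiefly Aup1 and Loxl3, and the use of strand in counting was not stated, so its level is uncertain. Of these neighbours, Aup1 averaged 848 and 783 (log2 fold change -0.11, DESeq2 adjusted P = 0.461) and Loxl3 377 and 701, an increase (log2 fold change 0.90, DESeq2 adjusted P = 8.62e-07). The neutrophil-lineage and erythroid markers were also lower in DMM, and their part in its decrease was not tested.

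Htra4 (ENSMUSG00000037406), a secreted protease known from placenta, lies at chr8:25024929-25038962 on the minus strand. Its counts were 505, 367, 533 and 664 in naïve libraries and 322, 553, 515 and 194 in DMM libraries. The groups overlapped widely, with DMM library 4 the lowest of all and DMM library 2 above the naïve mean. The means were 517 ± 122 and 396 ± 168 (SD, n = 4), and the gene did not pass the test (log2 fold change -0.39, 95% interval -0.95 to 0.17, DESeq2 adjusted P = 0.366). An opposite-strand gene, Gm16933, overlaps it, and 30.2% of its 31-base words recur in other genes, so this level is uncertain too.

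Per kilobase of transcript, the make-up of the summed Htra signal differed between the groups. Htra1 held 36.8 ± 3.81% of it in naïve (31.9% to 40.1%) and 51.9 ± 4.15% in DMM libraries (46.1% to 55.8%). Htra3 held 27.2 ± 2.19% and 34.8 ± 2.08%, while Htra2 fell from 17.0 ± 4.75% to 5.61 ± 0.70% and Htra4 from 19.0 ± 3.28% to 7.74 ± 2.57% of the sum (SD, n = 4). The ranges of the groups were separate for each of the 4 shares, which sum to the whole and are not independent of one another. Htra4 itself was not called, so its smaller share is no evidence of a change in Htra4. The levels of Htra2 and Htra4, which enter every share, are uncertain as given above. The ratio of Htra1 to Htra3 was 1.35 ± 0.093 in naïve and 1.5 ± 0.202 in DMM libraries per kilobase, with overlapping ranges, whereas the ratio of Htra1 to Htra2 was 2.35 ± 0.910 and 9.37 ± 1.46. These shares are given without a test and depend on the transcript length used. By the longest transcript, a choice added after seeing the data, Htra3 held 15.8 ± 1.38% in naïve and 20.5 ± 1.51% in DMM libraries, and the ratio of Htra1 to Htra3 was 2.87 ± 0.196 and 3.18 ± 0.427. The group ranges of the 4 shares were separate by that length too.

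**Figure D2:**
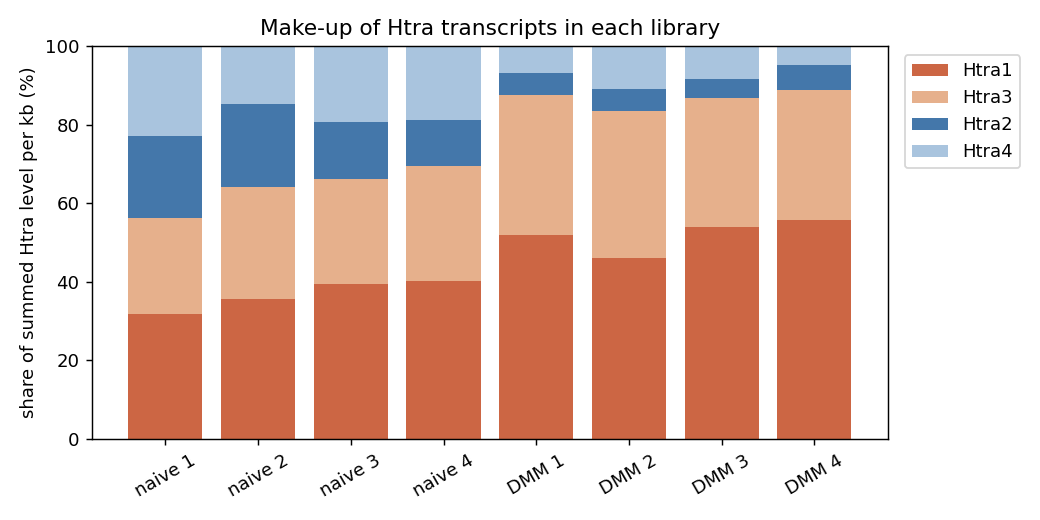
Share of the summed Htra level per kilobase (%) taken by each of the 4 Htra genes in every library, as stacked bars from 0 to 100%. Htra1 takes 31.9% to 40.1% in the naïve and 46.1% to 55.8% in the DMM libraries, and Htra2 and Htra4 take smaller shares in every DMM library.

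Plau (ENSMUSG00000021822, chr14:20836660-20843385, plus strand), which encodes urokinase, was the steadiest of the 8 genes. Its counts were 217, 241, 247 and 218 in naïve libraries and 235, 211, 230 and 216 in DMM libraries. Both groups covered almost the same range, with means of 231 ± 15.6 and 223 ± 11.3 (SD, n = 4). The ratio of DMM to naïve was 0.967 with a 95% interval of 0.813 to 1.15, which leaves out a change of 1.5-fold in either direction (log2 fold change -0.05, DESeq2 adjusted P = 0.846), and the sign of the small difference turned under total-count scaling.

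Plat (ENSMUSG00000031538, chr8:22757727-22782844, plus strand), which encodes tissue-type plasminogen activator, varied widely between mice. Its counts were 108, 161, 272 and 276 in naïve libraries and 294, 469, 235 and 199 in DMM libraries. The SD was about 40% of the mean in each group (204 ± 83.2 and 299 ± 120, n = 4), and DMM library 2 stood highest. The difference did not pass the test and its interval included a change of more than 1.5-fold (log2 fold change 0.55, 95% interval -0.07 to 1.17, DESeq2 adjusted P = 0.217). Plat is also made by endothelial cells, whose marker sum was higher in DMM as given above, and their part in these values was not tested.

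Plaur (ENSMUSG00000046223, chr7:24462484-24475968, plus strand), the urokinase receptor, had counts of 444, 553, 445 and 303 in naïve libraries and 255, 349, 306 and 345 in DMM libraries. Naïve library 4 lay within the DMM range and the other naïve libraries above it. The means were 436 ± 102.8 and 314 ± 43.9 (SD, n = 4). The gene passed neither part of the rule, with a change under 1.5-fold (log2 fold change -0.48, SE 0.19, DESeq2 adjusted P = 0.0522). Without naïve library 4 it was called lower (log2 fold change -0.62, DESeq2 adjusted P = 0.00151). Plaur is also made by myeloid cells, the neutrophil-lineage markers were lower in DMM as given above, and their part in these values was not tested.

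Serpine2 (ENSMUSG00000026249, chr1:79794197-79861180, minus strand), the inhibitor protease nexin-1, was by far the most abundant of the 8 transcripts. Its counts were 4893, 4587, 5311 and 6579 in naïve libraries and 5725, 6693, 6864 and 7570 in DMM libraries. The ranges overlapped, since naïve library 4 lay above DMM library 1. The means were 5342 ± 876 and 6713 ± 760.5 (SD, n = 4), and the 1.26-fold difference did not pass (log2 fold change 0.33, 95% interval 0.06 to 0.60, DESeq2 adjusted P = 0.07). The DESeq2 adjusted P was 0.0179 under total-count scaling and 0.134 without independent filtering. It ranged from 0.00235 (without naïve library 4) to 0.204 when 1 library was left out. The change stayed under 1.5-fold in each of these fits, so Serpine2 was not called.

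**Figure D3:**
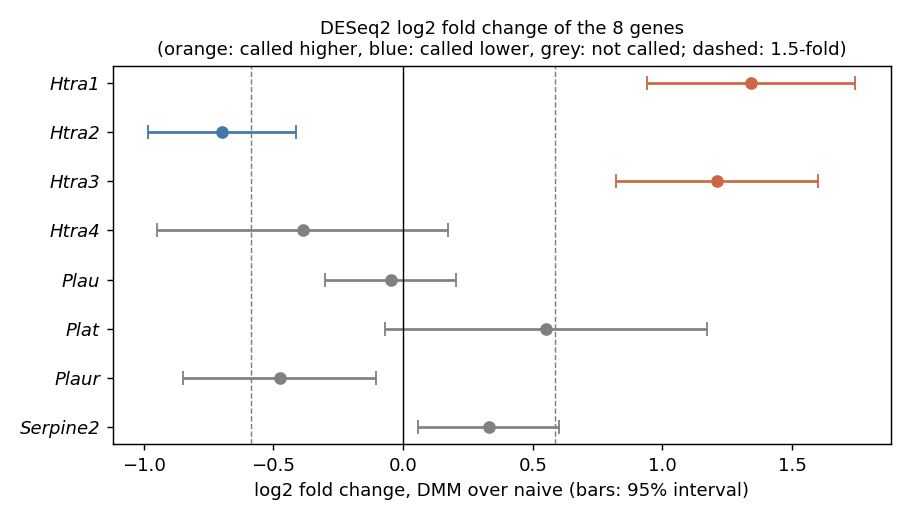
DESeq2 log2 fold change (DMM over naïve) of the 8 genes with 95% intervals, orange for called higher, blue for called lower and grey for not called, with dashed lines at 1.5-fold. Htra1 (1.34) and Htra3 (1.21) lie to the right of the line with their whole intervals, and Plau (-0.05) lies between the lines.

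Ordered by normalised count per kilobase of the median protein-coding transcript, Serpine2 came first in naïve cartilage (6499 ± 1066), followed by Htra1 (467 ± 139), Htra3 (344 ± 93.9), Plaur (290 ± 68.3), Htra4 (237 ± 55.9), Htra2 (205 ± 26.0), Plau (98.5 ± 6.64) and Plat (80.8 ± 32.9). Neighbours in this order were separate in range only between Serpine2 and Htra1 and between Htra2 and Plau. In DMM cartilage the first 3 places were separate from each other and from the rest, with Serpine2 at 8167 ± 925, Htra1 at 1183 ± 218 and Htra3 at 794 ± 137 (SD, n = 4). Below them, Plaur (208 ± 29.2), Htra4 (182 ± 77.1), Htra2 (126 ± 7.61), Plat (119 ± 47.4) and Plau (95.1 ± 4.84) overlapped from neighbour to neighbour. The median Serpine2 coding transcript is short (822 bases, against 2210 for the longest), and by the longest transcript its level per kilobase was 2417 in naïve and 3038 in DMM, still the first. By the longest transcript Htra3 was at 162 in naïve, below Plaur and Htra4, and Htra2 was at 95.4 in DMM, below Plat, so these places in the order depend on the length used.

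**Figure D4:**
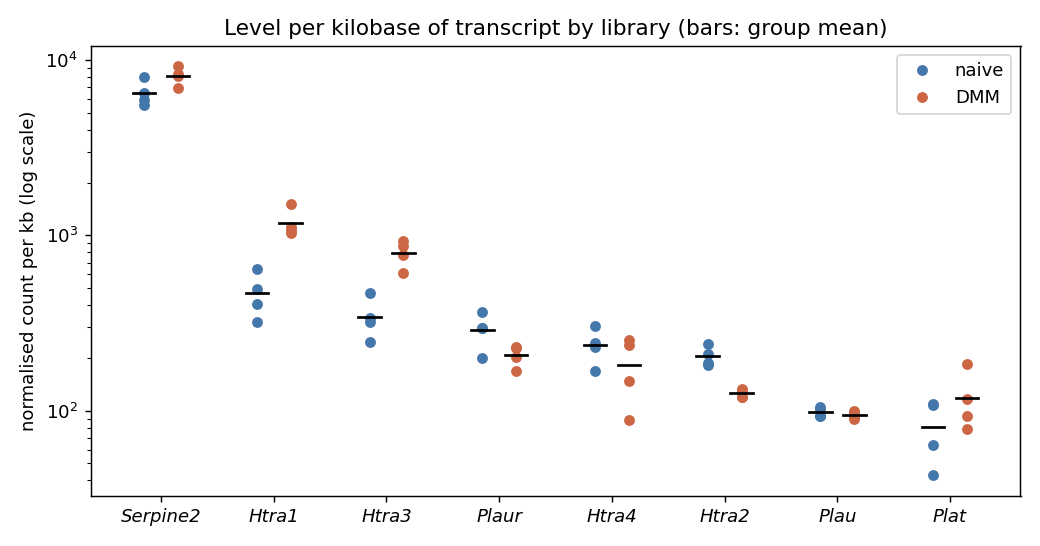
Normalised count per kilobase (log scale) of the 8 genes in each library, naïve in blue and DMM in orange, with bars at the group means. Serpine2 lies above the other 7 genes in every library, and Htra1 and Htra3 stand apart from the lower 5 genes in DMM only.

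The rest of the plasminogen pathway was described with 29 further genes, of which 22 were tested. Of these 5 were called higher, 1 lower and 16 neither, or 27.3% called beside 13.7% of all tested genes, and their median log2 fold change was 0.23 against -0.02 over all tested genes. Per kilobase, the ratio of Serpine2 to Plau was 66.4 ± 13.7 in naïve and 86.3 ± 12.8 in DMM libraries (SD, n = 4), with overlapping ranges of 54.3 to 86.1 and 69.5 to 99.99. By the longest transcript this ratio was 24.7 ± 5.11 and 32.1 ± 4.75.

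The receptors that clear protease and inhibitor complexes also rose. Lrp1, the endocytic receptor for such complexes, averaged 14170 in naïve and 22481 in DMM (log2 fold change 0.67, DESeq2 adjusted P = 0.00137), though DMM library 4 lay within the naïve range. Its relative Vldlr averaged 510.3 and 948 (log2 fold change 0.89, DESeq2 adjusted P = 4.69e-09). Mrc2, a collagen receptor that associates with Plaur, averaged 1395 and 2381 (log2 fold change 0.77, DESeq2 adjusted P = 3.93e-06). Fgf2, a growth factor stored in the cartilage matrix, rose from 183 to 334 (log2 fold change 0.87, DESeq2 adjusted P = 0.000784) with overlapping groups, and F3, tissue factor, rose from 22.7 to 52.3 (log2 fold change 1.21, DESeq2 adjusted P = 0.00703). The gene that fell was Serpinb2, a serpin that inhibits urokinase, from 54.3 ± 10.0 to 30.5 ± 8.23 (log2 fold change -0.84, DESeq2 adjusted P = 0.0206), named here after its values were seen. Serpinb2 was not called when naïve library 1 or DMM library 1, 3 or 4 was left out, nor under total-count scaling or with a replicate block. Without naïve library 1 the list gave 4 genes called higher in place of 5, so not all of the increases held in every fit. That fit called 1858 of all genes in place of 2429. The osteoblast and osteocyte markers and the endothelial sum were higher and the neutrophil-lineage markers lower in DMM, as given above, and their part in these 6 changes was not tested.

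Transcripts of plasminogen itself were close to absent: Plg, a gene expressed mainly in liver, did not exceed 2.66 normalised counts in any library, and Serpinf2, the plasmin inhibitor alpha-2-antiplasmin, did not exceed 5.35. Neither received an adjusted P value. The plasminogen receptors at the cell surface were expressed and none was called. Eno1, a glycolytic enzyme that also binds plasminogen, was lower in every DMM library than in every naïve library (3755 ± 169.7 and 3021 ± 76.4, SD, n = 4) but by less than 1.5-fold (log2 fold change -0.31, DESeq2 adjusted P = 0.000483), and is named here after its values were seen. Plgrkt averaged 165 and 145 (log2 fold change -0.18, DESeq2 adjusted P = 0.447), Anxa2 averaged 2629 and 3064 (log2 fold change 0.22, DESeq2 adjusted P = 0.322), and its partner S100a10 averaged 862 and 1154 (log2 fold change 0.42, DESeq2 adjusted P = 0.0678).

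**Figure D5:**
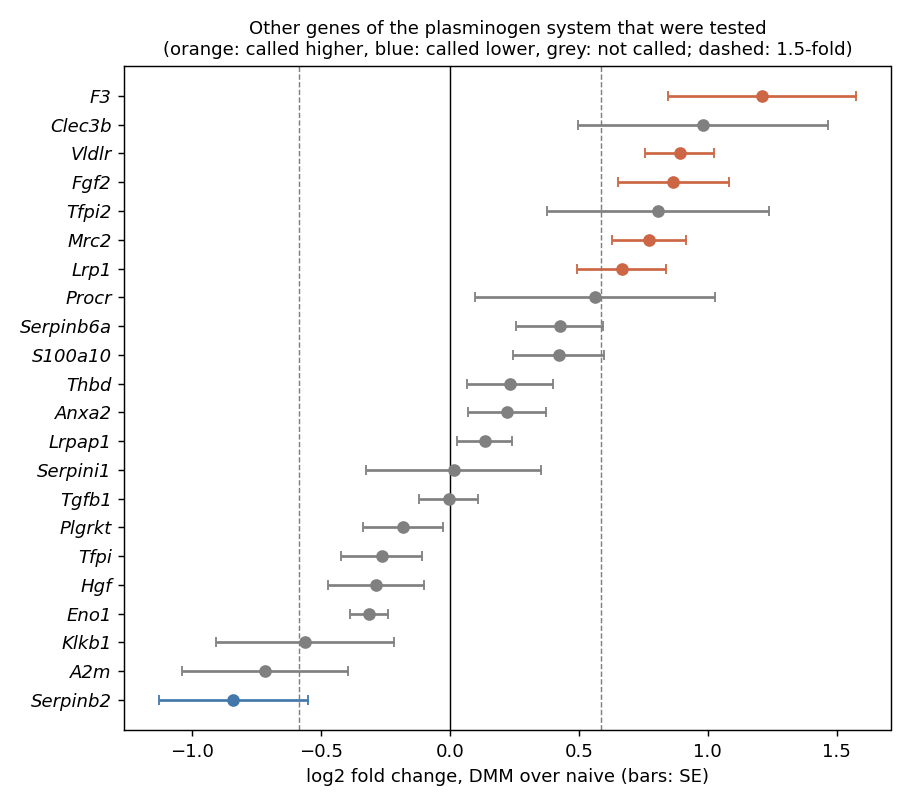
DESeq2 log2 fold change (DMM over naïve, bars show the SE) of the 22 tested pathway genes other than the 8, orange for called higher, blue for called lower, grey for not called, with dashed lines at 1.5-fold. F3 (1.21) is at the top and Serpinb2 (-0.84) at the bottom.

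Among 20 known substrates and partners of the HtrA proteins, 19 were tested, of which 8 were called higher, none lower and 11 neither (42.1% called beside 13.7% of all tested genes, median log2 fold change 0.33 against -0.02). All 8 were matrix or cell-surface genes. Fmod, fibromodulin, rose most (log2 fold change 2.08, DESeq2 adjusted P = 5.3e-21). Acan, aggrecan, rose too (log2 fold change 1.09, DESeq2 adjusted P = 7.75e-09), as did Dcn, decorin (log2 fold change 1.30, DESeq2 adjusted P = 7.76e-07). The other 5 were Ltbp1, Ddr2, Bgn, Fn1 and Col2a1, with log2 fold changes from 0.73 to 1.41. None of the 9 mitochondrial or apoptosis partners linked to HtrA2 (Xiap, Birc2, Birc3, Birc6, Diablo, Parl, Pink1, Opa1 and Endog) was called. The secreted Clu (log2 fold change -0.37, DESeq2 adjusted P = 0.204) and the cell-surface Tgfbr3 were not called either. Tgfbr3 rose by less than 1.5-fold (log2 fold change 0.37, DESeq2 adjusted P = 0.0288), and Vtn received no adjusted P value. All 7 osteoblast and osteocyte markers, 5 of 9 chondrocyte markers and 3 of 6 synovial fibroblast markers were called higher in the same libraries, and their part in these values was not tested. Acan and Col2a1 are on both the substrate list and the chondrocyte marker list, so these counts are not separate observations.

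The genes whose profile over the 8 libraries was closest to a member were found by the root mean square difference of centred log2 counts, among 11031 genes that averaged 100 or more normalised counts. Closest to Htra1 were Palmd (0.113) and Dcn (0.127), the latter also on the substrate list. Closest to Htra3 were Pmepa1 (0.0863) and Ano1 (0.125), and Htra1 and Htra3 differed from each other by 0.154. Closest to Htra2 were Mrvi1 (0.059) and Ppif (0.0764), which encodes the mitochondrial cyclophilin. Htra4 and Plat had no close match, the nearest being Clu (0.198) and Nhs (0.250).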

How the data were processed

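Total RNA of the 8 libraries was sequenced by the authors, who deposited estimated counts per gene from Kallisto and tximport. The labels name a human assembly, the study's methods a mouse one. The gene identifiers were those of mouse, and 48855 of 50462 matched a gene symbol. The exact build is uncertain. The labels and methods also name different library kits. Of the values, 39.2% were not whole, and counts were rounded before testing. The members and gene lists were chosen with earlier results of these data known.

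DESeq2 1.42.0 (R 4.3.3) was fitted to all 8 libraries without covariates, after the study's methods. edgeR 4.0.16 and limma-voom 3.58.1, other scalings and filters, a 1.5-fold null, a replicate block and leaving out each library were alternatives. In simulated counts of 18403 genes, the same rule called 146 of 200 genes changed 2-fold and also 29 unchanged genes. Named genes were the members, up to 6 called genes of each list by smallest adjusted P, 6 pathway genes whatever their result, and the nearest profiles (pseudocount 1). A further gene of the pathway list is not reported here and was left out of its counts. Lengths, coordinates and shared words were from GENCODE vM21 (GRCm38). Replicates differed by more than sampling noise. Intervals reflect the fit across libraries.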

Additional observations from a re-analysis of the deposited data

Results flagged for a closer look

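Of 94 groups of 4 values tested for a value far from the rest, 4 held one, where chance gives about 4.7, so the number is no more than chance would give. None was in a member gene. Decorin (Dcn), among the substrates of HtrA1, was 23656 normalised counts in DMM library 3 against 12856 to 13895 in the other DMM libraries. Vldlr was 426 in naïve library 2 against 534 to 548, and Serpinh1, the collagen chaperone, was 2291 in naïve library 1 against 3526 to 3714. Plg was 2.15 in DMM library 2 and 0 in the other DMM libraries, and these values are close to the limit of detection.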

How the results depend on the processing

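Htra1, Htra2 and Htra3 were called in all 8 fits that left out 1 library each (log2 fold changes of 1.20 to 1.54, -0.75 to -0.62 and 1.08 to 1.40) and with edgeR (adjusted P = 0.00467, adjusted P = 0.0055 and adjusted P = 0.00511) and limma-voom. Against a null of 1.5-fold, Htra1 alone of the members was called (DESeq2 adjusted P = 0.0485), so 1 member was called in place of 3, 0 pathway genes in place of 6, 1 HtrA substrate or partner in place of 8, and 2 genes of the serine protease and inhibitor list in place of 12. Calls over all genes dropped as well with this null, to 94 in place of 2429. Total-count scaling, which moved the median log2 fold change from -0.01 to 0.14, turned Plau to 0.10 (DESeq2 adjusted P = 0.63). Htra2 was not called under it (log2 fold change -0.54, under 1.5-fold, DESeq2 adjusted P = 0.000771). It thus called 2 members in place of 3, beside 2519 of all genes in place of 2429. Leaving out 1 library gave 3 to 4 called members, 4 to 8 pathway genes, 8 substrates or partners in every fit, and 10 to 14 genes of the serine list. The same fits called 1858 (without naïve library 1) to 2842 (without naïve library 4) of all genes, in place of 2429. The pathway list gave 8 without DMM library 2, where 2000 of all genes were called. Of the members, Plaur was called without naïve library 4 only. Ordering levels by the longest transcript kept 53 of 56 pairs, and turned Htra3 against Plaur and against Htra4 in naïve and Htra2 against Plat in DMM. The replicate numbers did not pair the samples (correlations of deviations 0.0705, 0.164, -0.142 and 0.106), and a replicate block called 3 members and 5 pathway genes, without Serpinb2, with Serpine2 at adjusted P = 0.0287 but under 1.5-fold. With the replicate block 2081 of all genes were called. By the calling rule, changes under 1.5-fold were not called whatever their P.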

Other observations

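Serine proteases and inhibitors outside the plasminogen pathway were examined as a further list of 30 genes, of which 25 were tested, 10 called higher, 2 lower and 13 neither (48.0% called beside 13.7% of all tested genes, median log2 fold change 0.32). Serpina3n, an inhibitor of the antichymotrypsin family, rose from 197 ± 51.2 to 763 ± 215 (SD, n = 4, log2 fold change 1.95, DESeq2 adjusted P = 6.35e-14). Pcsk5, a proprotein convertase, rose from 335 to 794 (log2 fold change 1.25, DESeq2 adjusted P = 1.37e-14), and Fap, the fibroblast activation protein, from 1330.4 to 2372 (log2 fold change 0.83, DESeq2 adjusted P = 9.2e-08). Serpinf1, which encodes PEDF, and Serpinh1, a collagen chaperone without protease inhibition, rose as well (log2 fold changes 1.17 and 0.97, DESeq2 adjusted P = 5.7e-07 and adjusted P = 7.18e-06). Coagulation factor F10 fell from 550.2 to 261 (log2 fold change -1.08, DESeq2 adjusted P = 2.01e-07). The other gene that fell was Serpinb1a, an inhibitor of neutrophil proteases, from 1526 to 886 (log2 fold change -0.78, DESeq2 adjusted P = 0.00242), named after its values were seen. The neutrophil-lineage markers fell in the same libraries, and their part in these decreases was not tested.

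The second nearest profiles and those of the genes that were not called were also recorded. Plau was nearest to Zmynd8 (0.0412) and Zfp748 (0.0413), Plaur to Gm34680 (0.0846) and Fam217b (0.089), Serpine2 to Rnf103 (0.059) and Fnbp1l (0.0768), Plat to Nmnat2 (0.252) after Nhs, and Htra4 to Wdr92 (0.304) after Clu.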
